A study of Homo sapiens with 14 samples.

Results

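Lenalidomide was compared with its solvent, DMSO, in SH-EP cells of the n-Myc control line, which has no SPARK-ON construct. The members of this comparison are 5 of the 14 samples of the series, 2 libraries with lenalidomide and 3 with DMSO, chosen by their labels alone. SH-EP is a human neuroblastoma line of the substrate-adherent, mesenchymal type. The series also holds a single-clone SPARK-ON line, kept below the n-Myc level at which condensates form and given lenalidomide to bring about phase separation of n-Myc, and baseline SH-EP samples, which were not analysed here. The control line serves in the design to show what lenalidomide does to the transcriptome by itself. By their labels, both control groups are the same line and differ only in the added agent. The labels give no dose and no plainly stated duration of treatment, nor whether the control line came from 1 clone. The treatment field holds the words "lenalidomide ON", which were not interpreted. PolyA RNA was sequenced, and the values are counts of reads per gene.

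Lenalidomide is a thalidomide analogue used against multiple myeloma. It binds cereblon (CRBN), the substrate receptor of a CUL4-DDB1 ubiquitin ligase, and changes which proteins the ligase marks for destruction. The proteins recruited only in the presence of the drug are called neosubstrates, and most are zinc finger transcription factors such as IKZF1, IKZF3 and ZNF692. This action is on proteins, so a count of RNA reads does not measure it directly. n-Myc, the product of MYCN, binds DNA as a partner of MAX and is the driver oncogene of a large class of high-risk neuroblastomas.

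No gene passed an adjusted p of 0.05 between lenalidomide and DMSO in the control cells. This held for 14666 genes tested with edgeR's quasi-likelihood test on the 5 control libraries, a share called of 0%. At an unadjusted p under 0.05 there were 295 genes, 2.01% of those tested, of which 174 (1.19%) were higher and 121 (0.825%) lower with lenalidomide. Positive changes made up 50% of all changes, and the median change over all genes was -8.67e-05 on the log2 scale. At an adjusted p under 0.1 edgeR gave 2 genes (0.0136%), POSTN and GNAZ. DESeq2 called 3 genes, POSTN and SEMA6B as higher and GNAZ as lower, and limma-voom called 0. A fit of all 11 libraries of both lines, whose spread is estimated jointly, called 7 of 16056 genes (0.0436%; 774, or 4.82%, at an unadjusted p under 0.05), POSTN, SEMA6B, RBKS, LYPD6, ZNF692 and RHOB as higher and GNAZ as lower. The joint fit takes in the SPARK-ON libraries, whose spread was smaller, so it can understate the error in control cells. With weights for each line, limma-voom over 11 libraries called only POSTN. The others of these 7 genes had adjusted p-values of 0.120 to 0.234 there. The call of these 7 genes therefore differed between fits, and values from the control fit and the fit of 11 libraries are given below.

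The precision of the comparison was set by the spread of the control libraries. The common biological coefficient of variation was 12.9% within the control groups, 4.71% when the 6 SPARK-ON libraries were fitted and 9.4% over all 11 libraries. The median standard error of a log2 change in the control fit was 0.163. For 10452 of the 10531 genes with a mean of at least 5 CPM, a read count scaled to the size of the library, in either group, 99.2%, the 95% interval of the change lay inside a 2-fold change in either direction. Over all genes tested this held for 11337, or 77.3%. For the other genes, mostly low in level, the interval reached past a 2-fold change, and a change of that size was not excluded.

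**Figure D1:**
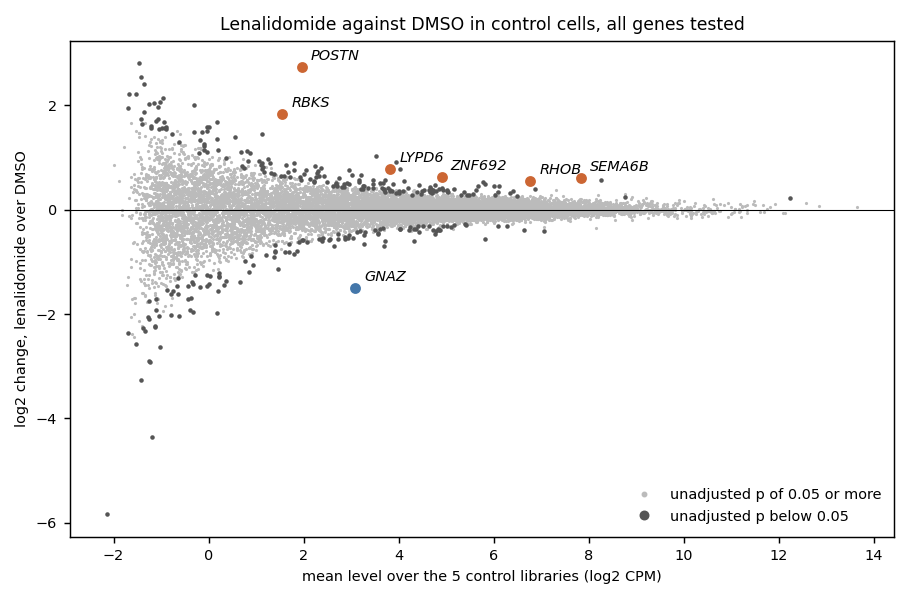
Each point is a gene, with its mean level over the 5 control libraries (log2 CPM, x axis) and its log2 change, lenalidomide over DMSO (y axis), in the fit of the 5 control libraries. Larger dark points have an unadjusted p under 0.05. The changes scatter about 0 and widen towards low levels, and POSTN at 2.73 and GNAZ at -1.51 are labelled with the other genes called over 11 libraries.

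Total counts were 16310438 and 19748302 in the lenalidomide libraries and 17212452 to 21511684 in the DMSO libraries. In these libraries 3 reads correspond to 0.139 to 0.184 CPM, which covers counting error only. The first principal component held 34.9% of the variance and did not separate the treatments: DMSO replicate 1 lay at 35.8 and lenalidomide replicate 2 at 13.8, against -19.7 to -12.9 for the other 3 libraries. The summed level of 76 cytosolic ribosomal protein genes moved with it, at 98020 and 87610 CPM in those 2 libraries and 72070 to 76440 in the others. Nuclear-encoded respiratory chain genes summed to 7577 and 6810 CPM there, against 5921 to 6037. The part of this axis in any change below was not tested, and results without these libraries are given where they differ. The second component held 23.1% of the variance, and on it the groups did not overlap. Lenalidomide libraries lay at -25.6 and -9.53 and DMSO libraries at 3.60, 4.14 and 27.4, an order that was not tested. Nothing in the labels says that the replicates came from separate cultures, so p-values measure the spread among these libraries, which may be technical. Marker levels were those of a mesenchymal state, the type of the labelled line, but they do not identify SH-EP. All 10 mesenchymal markers were above 1 CPM in every control library, with VIM at 1050 to 1310 and CD44 at 1070 to 1150 CPM. Of 10 adrenergic markers, 8 were below 1 CPM in all, 7 of them with 0 reads. The adrenergic markers GATA3 and CHGB were at 6.06 to 8.39 and at 0.26 to 1.48 CPM. Of 12 markers of blood, endothelial, epithelial and liver cells, 10 were below 1 CPM in every library and 5 had 0 reads, with summed levels of 3.33 to 3.37 CPM with lenalidomide and 2.36 to 2.86 CPM with DMSO.

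The drug's receptor and the MYC genes did not differ between groups beyond the spread of the libraries. CRBN stood at 374 and 341 CPM with lenalidomide and at 356, 354 and 382 CPM with DMSO, a log2 change of -0.03 ± 0.11 (SE). The groups overlapped, and the 95% interval ran from -0.26 to 0.21. MYCN, which the control line expresses strongly, was at 2672 and 2241 CPM with lenalidomide and at 2001, 2485 and 2530 CPM with DMSO, a log2 change of 0.07 ± 0.13 with an interval of -0.21 to 0.35. A gene-level count does not tell an introduced MYCN from the cell's own. MYC, the paralogue of MYCN, was low in both groups, at 3.18 and 3.53 CPM with lenalidomide and 3.38, 4.25 and 3.74 CPM with DMSO (-0.17 ± 0.25). MAX, the dimerization partner of both, was at 35.7 and 44.0 CPM against 40.6, 36.4 and 37.1 CPM (0.07 ± 0.13). The signs of the CRBN, MYCN and MAX changes turned when single libraries were left out. Of 18 genes encoding cereblon ligase subunits and regulators, 7 were positive and 11 negative, none had an unadjusted p under 0.05, and their median log2 change was -0.00935.

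Among 18 known or reported neosubstrates of lenalidomide and its relatives, 14 were tested, with 7 positive and 7 negative changes and a median of -0.00466. The largest change belonged to ZNF692, a zinc finger transcription factor. It was at 36.7 and 39.5 CPM with lenalidomide and at 27.1, 24.2 and 22.8 CPM with DMSO. Both lenalidomide libraries were above all 3 DMSO libraries, and the log2 change was 0.63 ± 0.13 with an interval of 0.34 to 0.91. The edgeR adjusted p was 0.964 in the control fit and 0.0409 in the fit of 11 libraries. IKZF1, the lymphoid transcription factor Ikaros and the best known neosubstrate in myeloma, stood at 16.5 and 16.1 CPM with lenalidomide and 21.3, 19.1 and 20.9 CPM with DMSO. The groups did not overlap, and its log2 change was -0.33 ± 0.14 (edgeR unadjusted p = 0.0353, adjusted p = 1). CSNK1A1, which encodes casein kinase 1 alpha and is the neosubstrate tied to del(5q) myelodysplastic syndrome, was at 200 and 187 CPM against 178, 211 and 199 CPM, with overlapping groups and a log2 change of -0.02 ± 0.12. WIZ, a zinc finger partner of histone methyltransferases, was at 130 and 133 CPM against 150, 145 and 156 CPM (-0.19 ± 0.11). ZFP91 and ZNF653 lay at 134 and 126 CPM against 122, 135 and 120 CPM, and at 11.3 and 11.8 CPM against 10.5, 8.62 and 9.43 CPM. ZNF653 overlaps ECSIT on the same strand, which was at 52 CPM, so the counts of ZNF653 are uncertain. The 4 members that failed the filter on low counts were IKZF3, SALL4, TP63 and ZBTB16, and ZBTB16 had 0 reads in all 5 libraries.

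**Figure D2:**
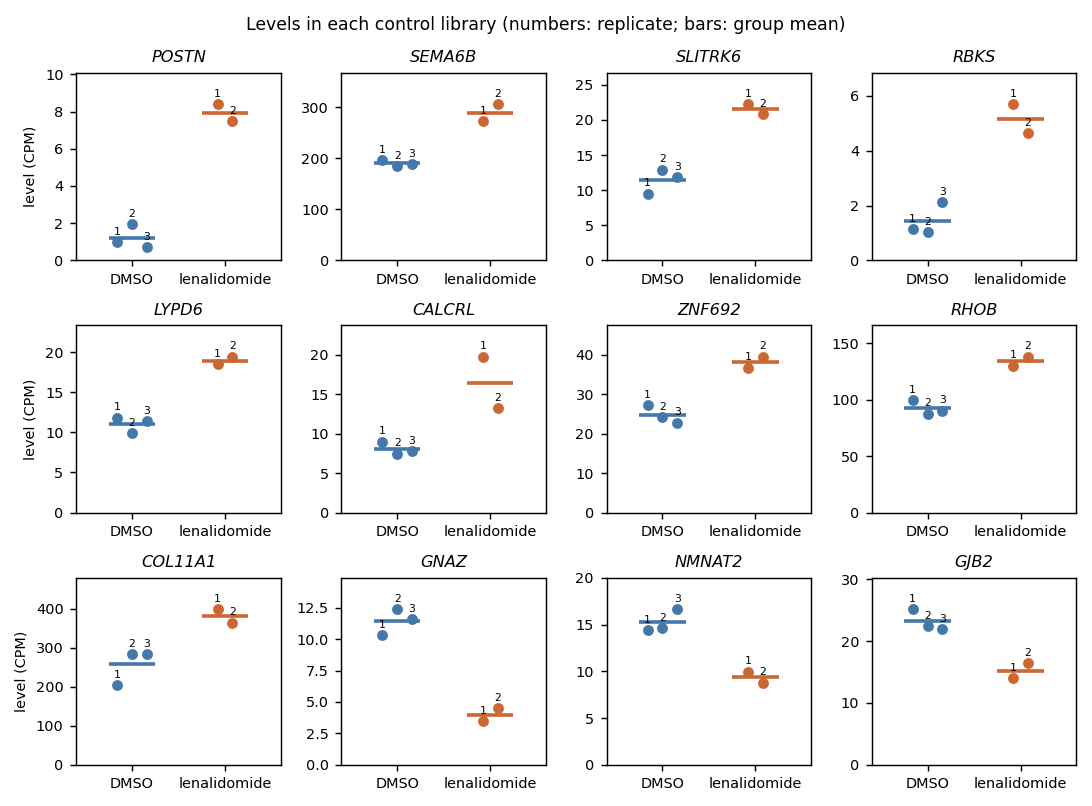
Levels in CPM of 12 genes in each control library, with 2 lenalidomide and 3 DMSO points a gene. Numbers are replicates and bars are group means. In each of the 12 panels the groups do not overlap, as the choice of these genes required, and POSTN lies at 7.47 and 8.38 CPM with lenalidomide and at 0.693 to 1.95 CPM with DMSO.

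POSTN had the smallest p of all genes tested. It encodes periostin, a secreted matricellular protein that binds integrins (ENSG00000133110.15, chr13:37562583-37598844, minus strand, GRCh38, GENCODE 29). Its level was 8.38 and 7.47 CPM in the lenalidomide libraries and 0.987, 1.95 and 0.693 CPM in the DMSO libraries. The groups were far apart, although POSTN was a low-level gene in this line even with lenalidomide. The log2 change was 2.73 ± 0.35, with an interval of 1.96 to 3.50 and an edgeR adjusted p of 0.098 in the control fit. The adjusted p was 0.0118 in the fit of 11 libraries and 0.0141 in limma-voom with separate weights for the lines. In bulk RNA, more cells with a transcript and more transcript per cell cannot be told apart. In SPARK-ON cells POSTN was nearly absent, at 0 to 0.245 CPM, and the difference between the lines could not be resolved (0.97 ± 1.8).

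GNAZ had the smallest p among the genes lower with lenalidomide. It encodes the alpha subunit of the G protein Gz, an inhibitor of adenylyl cyclase found mainly in neural and neuroendocrine cells and platelets (ENSG00000128266.9, chr22:23070361-23125037, plus strand). The lenalidomide libraries held 3.49 and 4.50 CPM and the DMSO libraries 10.3, 12.4 and 11.6 CPM. The groups did not overlap, and the log2 change was -1.51 ± 0.20, with an edgeR adjusted p of 0.098 in the control fit and 0.0118 in the fit of 11 libraries. In SPARK-ON cells GNAZ stood at 4.36, 5.57 and 6.18 CPM with lenalidomide and at 4.62, 6.14 and 4.35 CPM with DMSO on the scaling of all 11 libraries. There the log2 change was 0.07 ± 0.20. The difference of the responses, control minus SPARK-ON, was -1.58 ± 0.28 (edgeR unadjusted p = 2.94e-05, adjusted p = 0.471 over 16056 genes). DESeq2 called this difference (-1.593, adjusted p = 0.0353), and so did edgeR without a filter on low counts (adjusted p = 0.00516). Without the filter the edgeR difference was -1.566, close to the filtered value, so its lower p does not come from a larger difference.

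The next genes were named for a small p and for groups that do not overlap, with higher levels under lenalidomide, and are described by their products. SEMA6B, a transmembrane semaphorin of axon guidance (chr19:4542593-4559808), was the most abundant, at 274 and 306 CPM against 197, 185 and 189 CPM. Its log2 change was 0.61 ± 0.11, with an edgeR adjusted p of 0.579 in the control fit and 0.0255 in the fit of 11 libraries. SLITRK6, a transmembrane protein of neurite growth and of the inner ear, was at 22.2 and 20.8 CPM against 9.51, 12.9 and 11.9 CPM (0.91 ± 0.16). The lowest lenalidomide library was thus well above the highest DMSO library, yet the adjusted p of edgeR was 0.579 in the control fit and 0.0671 with 11 libraries. LYPD6, a membrane-anchored Ly6 domain protein (chr2:149329985-149474148), was at 18.5 and 19.4 CPM against 11.8, 9.88 and 11.4 CPM (0.78 ± 0.15; 11-library adjusted p in edgeR 0.0409). CALCRL, the receptor subunit for adrenomedullin and calcitonin gene-related peptide, was at 19.8 and 13.2 CPM against 8.99, 7.47 and 7.77 CPM (1.02 ± 0.20). KCNN4, a calcium-activated potassium channel, was at 19.7 and 23.9 CPM against 15.2, 11.5 and 11.6 CPM (0.77 ± 0.17). None of these passed in the fit of the control libraries alone. EPHB3, a receptor for B-type ephrins, lay at 10.7 and 10.2 CPM against 6.29, 7.24 and 6.24 CPM (0.67 ± 0.18), and IL7R, the interleukin 7 receptor alpha chain, at 74.0 and 60.6 CPM against 43.0, 51.2 and 45.8 CPM (0.53 ± 0.13).

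Inside the cell, RHOB, a short-lived GTPase of endosomes and the actin cytoskeleton (chr2:20447074-20449445), was at 130 and 138 CPM with lenalidomide and 99.5, 87.8 and 90.4 CPM with DMSO. The groups did not overlap, and the log2 change was 0.54 ± 0.11, with an edgeR adjusted p of 0.964 in the control fit and 0.0469 in the fit of 11 libraries. RBKS, ribokinase, which phosphorylates ribose (chr2:27781364-27891098), was at 5.69 and 4.66 CPM against 1.14, 1.03 and 2.13 CPM. The change was 1.82 ± 0.34, with an edgeR adjusted p of 0.625 in the control fit and 0.0409 with 11 libraries. RBKS overlaps MRPL33 and BABAM2 on the opposite strand, which were at 109 and 21 CPM, and without a stated strand setting reads of these genes cannot be told apart.

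The genes lower with lenalidomide were named in the same way. NMNAT2, an NAD synthesis enzyme that maintains axons, was at 9.97 and 8.80 CPM against 14.4, 14.6 and 16.7 CPM (-0.70 ± 0.16). GJB2, the gap junction protein connexin 26, was at 13.9 and 16.5 CPM against 25.2, 22.4 and 21.9 CPM (-0.60 ± 0.15). IGFBP4, a secreted protein that binds insulin-like growth factors, was at 78.7 and 88.3 CPM against 117, 103 and 110 CPM (-0.40 ± 0.12). Each of these 3 had an edgeR adjusted p of 1 in the control fit. FJX1, a secreted growth regulator related to four-jointed of flies, was at 106 and 119 CPM against 164, 146 and 138 CPM (-0.40 ± 0.12), and TK2, the mitochondrial thymidine kinase, at 8.93 and 11 CPM against 15.7, 13.9 and 15.9 CPM (-0.61 ± 0.16). PCK1, which catalyses the committed step of gluconeogenesis, was at 22.4 and 23.5 CPM against 31.2, 26.9 and 33.8 CPM (-0.42 ± 0.14). The non-coding RNA LINC00963 was at 38.9 and 48.6 CPM against 75.8, 58.8 and 60.6 CPM (-0.57 ± 0.15). In all of the lower genes the lenalidomide level was still well above the level that 3 reads would give.

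The bases upstream of 3 of the genes called over 11 libraries are shown because n-Myc with MAX binds E-boxes, and the control cells express MYCN strongly. The sequences are the 250 bases before the annotated start, from RefSeq on GRCh38.p14, written 5′ to 3′ on the gene's strand. Capitals mark CANNTG, the general E-box, which reads the same on both strands and includes CACGTG, the form preferred by MYC proteins. POSTN is chr13:37598769-37599018 (minus strand), ZNF692 is chr1:248859086-248859335 (minus strand) and RHOB is chr2:20446824-20447073 (plus strand).
POSTN: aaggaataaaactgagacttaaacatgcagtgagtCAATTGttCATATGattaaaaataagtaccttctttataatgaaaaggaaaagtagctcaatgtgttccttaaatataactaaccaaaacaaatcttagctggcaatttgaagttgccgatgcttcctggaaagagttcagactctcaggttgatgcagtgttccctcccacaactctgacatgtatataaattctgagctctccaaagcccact
ZNF692: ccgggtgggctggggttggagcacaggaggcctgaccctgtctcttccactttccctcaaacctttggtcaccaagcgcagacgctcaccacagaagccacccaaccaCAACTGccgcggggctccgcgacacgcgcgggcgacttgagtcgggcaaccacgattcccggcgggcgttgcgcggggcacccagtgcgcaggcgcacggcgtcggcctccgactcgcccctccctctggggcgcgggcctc
RHOB: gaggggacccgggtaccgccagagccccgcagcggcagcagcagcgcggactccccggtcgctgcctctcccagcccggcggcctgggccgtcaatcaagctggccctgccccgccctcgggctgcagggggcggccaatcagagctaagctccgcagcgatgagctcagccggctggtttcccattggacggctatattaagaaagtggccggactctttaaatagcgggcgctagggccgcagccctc
The POSTN stretch held CANNTG at 215 and 207 bases before the start, ZNF692 at 142 bases before it, and RHOB nowhere. Of the 7 genes called over 11 libraries, 5 matched the table, with 6 windows, of which 3 held CANNTG and 0 held CACGTG. Over all 35116 windows of this length, 61.8% held CANNTG and 6.34% held CACGTG. A match of letters is a description of the sequence and not a binding site.

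Gene groups were described by counts and medians beside the same over all genes, with 33 lists and 0 called members in the control fit. Of 40 extracellular matrix genes, 30 were positive, 7 were higher without overlap (beside 7.59% of all genes) and 0 lower, and the median log2 change was 0.062. POSTN and ITGA1, an integrin chain for collagen, had an unadjusted p under 0.05 (ITGA1 0.49 ± 0.21). COL11A1, a fibrillar collagen that is not in the list, was at 399 and 364 CPM against 204, 283 and 284 CPM (0.57 ± 0.15). The median of the list was -0.009 without DMSO replicate 1, whose summed matrix level of 6184 CPM was the lowest, against 7472 and 7179 CPM in the other DMSO libraries and 7487 and 6949 CPM with lenalidomide. Of 25 semaphorins, plexins and neuropilins, 15 were positive with a median of 0.0152, and besides SEMA6B only SEMA3B had an unadjusted p under 0.05 (5.57 and 7.21 CPM against 3.48, 4.19 and 4.67 CPM). Of 25 G protein alpha subunits and RGS proteins, 14 were positive with a median of 0.0363. RGS3, which speeds GTP hydrolysis by G proteins, was at 55.1 and 65.6 CPM against 50.8, 41.2 and 41.1 CPM (0.45 ± 0.14), opposite in sign to GNAZ.

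Heat shock proteins and chaperones summed to 15190 and 14920 CPM with lenalidomide and 13810, 13790 and 13870 CPM with DMSO, without overlap. HSP90AA1, the inducible HSP90, carried much of this sum, at 5547 and 5050 CPM against 4330, 4641 and 4584 CPM (0.23 ± 0.093). Of the 14 members tested, 10 were positive, 5 were higher without overlap (beside 7.59% of all genes) and 0 lower (beside 6.76%), and the median was 0.0479. In SPARK-ON cells HSP90AA1 changed by -0.10 ± 0.054, and the difference of the responses was 0.33 ± 0.081 (edgeR unadjusted p = 0.000801, adjusted p = 1). HSP90AA1 overlaps WDR20 on the opposite strand, which was at 18 CPM.

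Of 19 NF-kappaB and cytokine genes, 11 were positive with a median of 0.122. TNFAIP2, induced by tumour necrosis factor, was at 89.1 and 94.9 CPM against 73.5, 75.6 and 72.4 CPM (0.32 ± 0.11), and NFKB2, which encodes the p100 subunit, at 24.3 and 25.3 CPM against 19.7, 21.7 and 19.2 CPM (0.30 ± 0.13). Of 26 genes of TGF-beta and YAP responses, 15 were positive, 6 were higher and 1 lower without overlap (beside 7.59% and 6.76% of all genes), and CCN2, a matricellular target of both, was at 68.8 and 69.7 CPM against 60.0, 56.7 and 58.8 CPM (0.24 ± 0.11). Of 24 immediate early genes only 6 were positive, and the median was -0.113. Their summed levels overlapped, at 549.7 and 628.6 CPM with lenalidomide and 631.5, 579.9 and 583.7 CPM with DMSO. FOSL1, an AP-1 subunit prominent in mesenchymal neuroblastoma cells, went against its list at 54.6 and 60.4 CPM against 48.3, 41.7 and 42.5 CPM (0.38 ± 0.12). Hypoxia genes were positive in 20 of 28 members with a median of 0.0751, and ANKRD37 had an unadjusted p under 0.05 (0.45 ± 0.20). ANKRD37 overlaps UFSP2 on the opposite strand, which was at 25.1 CPM, so its counts are uncertain.

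Growth and MYC-related lists lay near 0. Of 16 MYC and MAX network genes 7 were positive (median -0.0188), of 35 cell cycle genes 16 (median -0.00468), of 29 genes that make nucleotides, polyamines or one-carbon units 13 (median -0.0118) and of 24 p53 targets 13 (median 0.0388), and none of these lists had a member at an unadjusted p under 0.05. Of 35 ribosome biogenesis genes, 9 were positive and 26 negative with a median of -0.0384, which became 0.013 without lenalidomide replicate 1. Cytosolic ribosomal proteins had a median of -0.03 with 28 of 76 positive, and this became 0.132 without DMSO replicate 1, the library with the highest ribosomal protein sum. Interferon-stimulated genes were positive in 8 of 18 members (median -0.0353), with none at an unadjusted p under 0.05. The interferon-induced IFITM1, which is not among these members, was lower with lenalidomide (edgeR unadjusted p = 0.0111). Mitochondrially encoded transcripts were positive in 11 of 13 (median 0.0946), at 22590 and 21910 CPM with lenalidomide and 20590, 19330 and 22010 CPM with DMSO, and the groups overlapped.

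**Figure D3:**
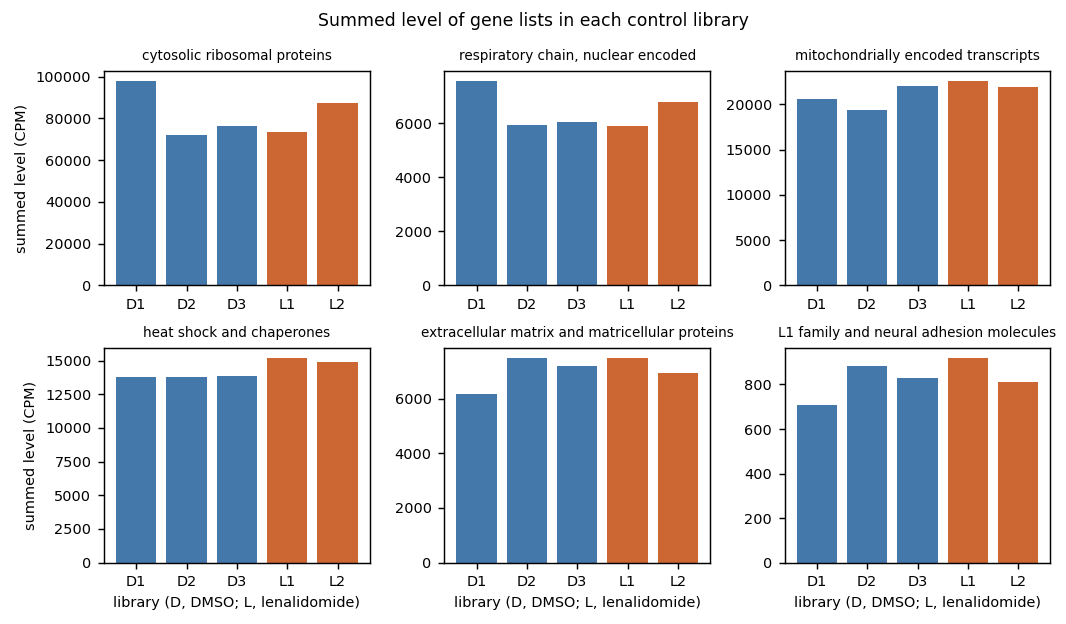
Summed CPM of 6 gene lists in each control library, with DMSO replicates D1 to D3 and lenalidomide replicates L1 and L2. Ribosomal protein and respiratory chain sums are highest in D1 and L2, whereas the heat shock sums of L1 and L2 lie above all 3 DMSO libraries.

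The control libraries allow the genes called with lenalidomide in the SPARK-ON line to be read where the construct is absent. The lines share no library, but the fit of 11 libraries estimates spread from both lines. In the fit of 11 libraries 11 genes were called with lenalidomide in SPARK-ON cells, all as higher (0.0685% of the genes tested), and 9 of them were tested in the control cells. Of these 9, 8 had the same direction in control cells (88.9%, beside 50% of all genes with a positive change), 7 were higher without overlap between groups (77.8%, beside 7.59%), 5 had an unadjusted p under 0.05 (beside 1.19%) and 0 were called. Their median log2 change was 0.333 in control cells and 0.542 in SPARK-ON cells. Choosing genes in the fit of 11 libraries could favour those with little spread in control cells. The counts of these 9 genes are therefore not independent of the choice.

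Most of these genes were higher in both control lenalidomide libraries. L1CAM, a neural cell adhesion molecule, was at 2.20 and 2.51 CPM against 0.624, 1.09 and 0.971 CPM, a log2 change of 1.39 ± 0.40 beside 0.94 ± 0.13 in SPARK-ON cells. CPA4, a secreted carboxypeptidase, was at 6.91 and 5.99 CPM against 3.27, 3.27 and 4.25 CPM (0.83 ± 0.23, beside 0.68 ± 0.099). DIO2, which activates thyroid hormone, was at 33.6 and 31.7 CPM against 20.2, 24.9 and 25.9 CPM (0.46 ± 0.14, beside 0.67 ± 0.087). For these 3 genes no difference between the lines was found at an unadjusted p under 0.05. PLAU, the urokinase plasminogen activator, was at 28.9 and 29.2 CPM against 24.1, 23.2 and 21.9 CPM (0.33 ± 0.13, beside 0.51 ± 0.080), and ABCC3, an organic anion exporter, at 25.7 and 22.2 CPM against 17.5, 19 and 20 CPM (0.34 ± 0.14, beside 0.50 ± 0.079). PLK2, a stress-responsive kinase, was at 59.6 and 61.1 CPM against 53.5, 54.4 and 47.2 CPM (0.22 ± 0.12, beside 0.42 ± 0.074).

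For the other 3 the difference between the lines had an unadjusted p under 0.05, and none passed adjustment. They too were selected on their SPARK-ON values. FBXO32, a ubiquitin ligase subunit of muscle atrophy, was at 153 and 164 CPM with lenalidomide and 173, 168 and 169 CPM with DMSO, so that both lenalidomide libraries were below all DMSO libraries. Its log2 change was -0.10 ± 0.11, beside 0.42 ± 0.070 in SPARK-ON cells, where levels were 296, 286 and 314 CPM against 228, 207 and 235 CPM. The difference of -0.52 ± 0.11 had an edgeR adjusted p of 0.725 (unadjusted 0.000123) and a DESeq2 adjusted p of 0.0196. KCNJ2, an inward rectifier potassium channel, was at 6.55 and 6.4 CPM against 5.61, 5.86 and 6.33 CPM (0.12 ± 0.19, beside 0.87 ± 0.15), and the difference was -0.74 ± 0.22 (edgeR unadjusted p = 0.00325, adjusted p = 1). DKK1, a secreted Wnt inhibitor, was at 103 and 114 CPM against 108, 86.2 and 89.5 CPM (0.20 ± 0.13, beside 0.54 ± 0.097), with a difference of -0.34 ± 0.14. The 2 genes that failed the filter in control cells were ANXA8, at 0.367 and 0.153 CPM against 0, 0 and 0.0462 CPM, and C3, at 0.428 and 0.665 CPM against 0.208, 0.172 and 0.462 CPM.

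**Figure D4:**
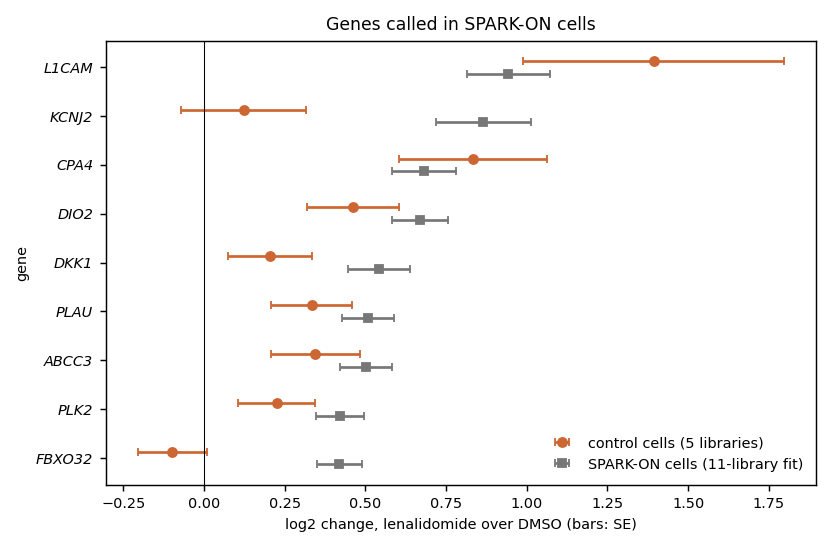
Log2 change, lenalidomide over DMSO, of the 9 genes called in SPARK-ON cells and tested in control cells, with bars of ± 1 SE, for control cells (fit of 5 control libraries) and SPARK-ON cells (fit of 11 libraries). L1CAM is at 1.39 and 0.94, whereas FBXO32 is at -0.10 and 0.42.

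A wider set of SPARK-ON genes was called when the 6 SPARK-ON libraries were fitted without the control line. Of 263 genes called as higher there (1.79%), 249 were tested in control cells, and 184 of them (73.9%) were positive, 63 (25.3%, beside 7.59%) did not overlap and 33 (13.3%, beside 1.19%) had an unadjusted p under 0.05. Their median was 0.0884 in control cells and 0.303 in SPARK-ON cells, where they were selected for passing. Of 118 genes called as lower (0.805%), 68 (57.6%) were negative in control cells, 12 (10.2%, beside 6.76%) did not overlap and 1 (0.847%) had an unadjusted p under 0.05, close to the 0.825% of all genes. Their medians were -0.0159 in control and -0.192 in SPARK-ON cells. Selection on the SPARK-ON values enlarges the SPARK-ON medians, here and for the 9 genes above, so that the medians of the lines are not comparable in size. The share of higher genes with the same direction was 63.3% without DMSO replicate 1.

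In a test of the difference itself, the response to lenalidomide in control minus that in SPARK-ON cells, edgeR called 0 of 16056 genes (0%), and 669 (4.17%) had an unadjusted p under 0.05. DESeq2 called FBXO32, IGFBP4 and GNAZ, all with the lower response in control cells, and limma-voom called 0. IGFBP4 had a difference of -0.56 ± 0.12 (edgeR unadjusted p = 0.000176, adjusted p = 0.725), with 369, 379 and 357 CPM against 312, 313 and 360 CPM in SPARK-ON cells. Among genes higher in control cells, LYPD6 differed by 0.79 ± 0.19 (edgeR adjusted p = 0.869) and SEMA6B by 0.43 ± 0.13 (adjusted p = 1), while RHOB differed by 0.10 ± 0.13 and ZNF692 by 0.27 ± 0.14. In the fit of the 6 SPARK-ON libraries RHOB (0.44), ZNF692 (0.36), COL11A1 (0.36), KCNN4 (0.48) and IL7R (0.22) were also called higher with lenalidomide. SEMA6B, SLITRK6, LYPD6, RBKS, CALCRL and EPHB3 were not called there, and POSTN was not tested. IKZF1 had responses of opposite sign, -0.33 ± 0.14 in control and 0.31 ± 0.12 in SPARK-ON cells, a difference of -0.64 ± 0.18 (edgeR unadjusted p = 0.00257, adjusted p = 1). A p that misses the threshold does not show that the lines responded alike.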

How the data were processed

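The comparison was proposed and its gene lists were chosen with earlier results of these data known; the labels alone decide which samples it holds. The authors deposited raw counts per gene, whole numbers without normalization. Per the submitters' processing notes, FastQC, fastp, HTSeq and edgeR were used with hg38. The aligner, strand setting, annotation and versions are not given in the sources used here. Of 14 columns, 3 matched no labelled sample and were not used. Gene names matched 61415 of 61533 identifiers, and positions are from GENCODE 29.

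The 5 control libraries were fitted alone in R 4.3.3 with edgeR 4.0.16 (filterByExpr with minimum count 10, TMM, glmQLFit and two-sided glmQLFTest), because their spread exceeds that of the SPARK-ON libraries. P-values were adjusted by Benjamini-Hochberg over all genes tested, with a threshold of 0.05. Levels are CPM on TMM-scaled library sizes. SE is the log2 change over the root of F. Alternatives used DESeq2 1.42.0, limma 3.58.1, all 11 libraries, other scalings and filters, and left out each library. SPARK-ON values and differences between lines are from the fit of 11 libraries unless another fit is named. The wider set of SPARK-ON genes and the correlation across genes use the fit of the 6 SPARK-ON libraries. The code was tested on simulated data.

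Named genes are those past the threshold in either fit, up to 12 a direction of smallest p at 5 CPM or more without overlap between groups, the smallest-p member of each list, MYCN, MYC, MAX, CRBN, the neosubstrates and the genes called in SPARK-ON cells. ITGA1, SEMA3B, RGS3 and NFKB2 were taken from their lists after their values were seen. No set test was made. The values of 1 gene list are not reported here.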

Additional observations from a re-analysis of the deposited data

How the results depend on the processing

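No gene was called higher or lower with RLE or library-size scaling, a minimum count of 50, limma-voom, robust empirical Bayes or an adjusted p under 0.01. Genes called higher and lower numbered 8 and 1 without a filter on low counts (POSTN, RBKS, SEMA6B, SLITRK6, LYPD6, CALCRL, KCNN4, COL11A1 and GNAZ), 2 and 1 with DESeq2, 6 and 1 in the fit of 11 libraries, 1 and 0 in limma-voom over 11 libraries with weights per line, and 1 and 1 at an adjusted p under 0.1. Without the filter POSTN changed by 2.734 with an edgeR adjusted p of 8.56e-17, against 2.73 and 0.098 with it. The smaller p thus did not come from a larger change. Leaving out libraries gave 0 to 61 higher and 0 to 24 lower. The 61 and 24 came from leaving out DMSO replicate 1 and lenalidomide replicate 2 together, where 1 lenalidomide library stands for its group and is assumed to vary like the DMSO libraries. Leaving out single libraries gave 1 call, POSTN without DMSO replicate 2 (3.231, adjusted p = 0.00096). Deviations of same-numbered libraries from their group means correlated at -0.22 and -0.167 across genes. With 2 lenalidomide libraries the deviations of 1 mirror those of the other. These values therefore cannot show whether the replicate numbers pair the samples. With the replicate block 2 genes were called higher (POSTN, RBKS) and 1 lower (GNAZ). DMSO replicate 3 has no lenalidomide library of its number, so it did not inform the changes in that fit. Little was left there to estimate spread, so the p-values of the block rest mostly on spread shared across genes. Lists with a called member numbered 5 without a filter, 3 with DESeq2, 7 over 11 libraries, 1 with weights per line, 3 with the replicate block and 0 to 15 with libraries left out. The difference between lines gave 0 higher genes under every alternative run and 1 lower without a filter, 3 with DESeq2 and 0 to 0 with libraries left out. The shares of SPARK-ON genes with the same direction in control cells were 88.9% to 90% with control libraries left out, over the 9 tested genes or, without lenalidomide replicate 1, 10, and in an alternative chosen after seeing the data 63.3% to 76.2% for the wider higher set and 52.5% to 68.6% for the lower set. With the higher genes chosen by DESeq2 the share was 76.1%. Of 47 genes recomputed under each setting that could be fitted, 43 kept their sign. Of the other neosubstrates, ARID2, ZNF276, ZNF654, ZNF827, ZMYM2 and E4F1 turned sign when single libraries were left out. With libraries left out, CSNK1A1 ranged from -0.084 to 0.035, CRBN from -0.094 to 0.039, MYCN from -0.062 to 0.192 and MAX from -0.091 to 0.208, and CRBN was 0.009 with the replicate block. The cause of these shifts was not tested. With 2 against 3 libraries, an exact permutation test of a single gene could not pass the threshold, and none was used.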

Other observations

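Some further genes had an unadjusted p under 0.05 and no overlap between the control groups. H2AC6, a histone gene, was at 11.3 and 10.9 CPM with lenalidomide and 8.78, 8.22 and 8.46 CPM with DMSO (0.39 ± 0.16), and 8 of 14 replication-dependent histones were positive with a median of 0.0247. IGFBP3, a secreted binder of insulin-like growth factors in the growth arrest list, was at 9.42 and 7.83 CPM against 7.07, 5.74 and 6.29 CPM (0.43 ± 0.19), opposite in sign to IGFBP4. IFITM1, an interferon-induced membrane protein, was at 4.16 and 4.91 CPM against 8.68, 5.86 and 7.67 CPM (-0.71 ± 0.23). It overlaps IFITM2 on the same strand in the annotation, so its counts are uncertain. NUDT3, a phosphohydrolase of inositol pyrophosphates, was at 6.30 and 8.03 CPM against 13.4, 9.94 and 10.8 CPM (-0.66 ± 0.20), and VRK3, a pseudokinase of the vaccinia-related family, at 24.1 and 25.5 CPM against 34.5, 30.9 and 31.7 CPM (-0.38 ± 0.13). None of these genes passed adjustment in edgeR. VRK3 overlaps ZNF473 on the opposite strand, which was at 18.6 CPM, so the counts of VRK3 are uncertain too. Log2 changes with lenalidomide were also compared between the control fit and the fit of the 6 SPARK-ON libraries. Across 13820 genes tested in both, they had a Pearson correlation of 0.0925, and of 0.156 over the 10508 genes with at least 5 CPM in 1 control group. These are correlations across genes, which are not independent replicates.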
